A study of Mus musculus with 6 samples.

Results

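The positive transcription elongation factor P-TEFb, the proteins that hold it on 7SK RNA and the scaffolds that bring it to genes were followed at the mRNA level in neural progenitor cells (NPCs) with and without *Armc5*. The 9 genes, *Cdk9*, *Ccnt1*, *Ccnt2*, *Hexim1*, *Hexim2*, *Larp7*, *Mepce*, *Aff1* and *Aff4*, were taken by name for the function of their proteins, out of 53060 genes or merged loci in the deposited table. The RNA-seq data hold 3 *Armc5* KO (*Armc5* -/-) and 3 WT libraries of NPCs, which the labels call neural stem cells of strain 129 sv X CD1, while the study's methods place the KO mice in a CD1 x C57BL/6 F1 background. Cells of both groups were dissociated from ganglionic eminences of e13.5 fetuses, cultured as neurospheres in medium with 20 ng/ml epidermal growth factor, and used at passage 2. The KO is constitutive, so that every cell of the fetus lacks the gene, and how many fetuses went into a culture is not stated in these sources. p values therefore measure the spread between these cultures.

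After initiation, RNA polymerase II (Pol II) halts a short way into most genes, and P-TEFb releases it. P-TEFb is the kinase CDK9 with cyclin T1 or cyclin T2, and it phosphorylates the C-terminal domain (CTD) of POLR2A, the pausing factor NELF and the SPT5 subunit of DSIF. Much of the cell's P-TEFb is held inactive on the small nuclear RNA 7SK by HEXIM1 or HEXIM2. LARP7 binds the 3′ end of 7SK and MEPCE caps its 5′ end. P-TEFb set free from 7SK can enter the super elongation complex, whose scaffolds are AFF1 and AFF4. ARMC5 is the substrate receptor of a CUL3 ubiquitin ligase for Pol II subunits, and the comparison of KO with WT NPCs addresses what its loss does to the transcriptome. Enzyme activity, protein amounts and the share of P-TEFb on 7SK were not measured by these libraries.

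The RNA on which these proteins meet is shown because the *Rn7sk* count enters the results as a partner level and as a scale. *Rn7sk* is 331 bases long in GENCODE M21 (GRCm38, chromosome 9, minus strand). Its first 90 bases (chr9:78175544-78175633) carry the GATC letters, capitals here, that are GAUC in the RNA. HEXIM proteins bind a hairpin in this 5′ part of the RNA, and which of the marked GAUC they contact was not measured here. Its last 40 bases (chr9:78175303-78175342) end in the T run, capitals here, that is the U tail bound by LARP7. The third sequence is mature miR-2861 (RefSeq, GRCm38.p6, chr2:32712819-32712837, minus strand), with its seed, bases 2 to 8, in capitals, because the locus counted as *Cdk9* also takes in *Mir2861* and *Mir3960*.
Rn7sk, first 90 bases: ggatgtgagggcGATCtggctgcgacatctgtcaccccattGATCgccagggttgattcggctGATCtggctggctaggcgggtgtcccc
Rn7sk, last 40 bases: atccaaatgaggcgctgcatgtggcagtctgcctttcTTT
miR-2861: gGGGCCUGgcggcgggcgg
GATC, which reads the same on both strands, occurs 3 times in *Rn7sk*, starting at bases 13, 42 and 64. Of 129282 GENCODE transcripts of 331 or more bases, 7.99% have 3 or more GATC in their first 331 bases and 61.9% have any.

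The libraries held between 52995791 (KO NPC 3) and 85170379 (KO NPC 1) counts at loci that name a gene, of which the 9 genes together took between 54.1 and 68.5 per 100000. *Armc5*, the deleted gene, had 84, 119 and 43 counts in KO NPC 1, 2 and 3, against 1966, 2114 and 1797 in WT NPC 1, 2 and 3. KO NPC 3 stands apart from the other 5 libraries. Its summed level of 5 astrocyte markers was 2172 counts per 1000000 counts (CPM, on library sizes scaled by TMM), against 346 and 382 CPM in the other KO NPCs. In WT NPC 1, 2 and 3 the sum was 340, 454 and 631 CPM. *Gfap*, an astrocyte filament gene of that list, had 276 CPM in KO NPC 3, against 0.157 and 1.54 CPM in the other KO NPCs. In WT NPC 1, 2 and 3 *Gfap* had 0.396, 1.31 and 47.9 CPM. The progenitor marker *Nes* had 75.8 CPM in KO NPC 3, against 356 to 483 CPM elsewhere. The sum of 9 progenitor markers, *Nes* included, moved less, at 3107 CPM there, against 4052 and 4750 CPM in the other KO NPCs and 4267 to 4555 CPM in the WT NPCs. *Sox2*, which marks neural stem cells, had 811 CPM in KO NPC 3 and 535 to 626 CPM elsewhere. This marker was present in all 6 libraries, which alone does not show the cell type of KO NPC 3. The loci that name no gene took 4.89% of the counts of KO NPC 3 and 1.31% to 1.72% of those of the others. *Mbp*, an oligodendrocyte gene, had 518 CPM in KO NPC 3, against 8.41 to 84.4 CPM elsewhere, and 6 endothelial and mural markers together had 77.0 CPM there, against 3.78 to 7.40 CPM elsewhere. The sum of 9 oligodendrocyte lineage markers, *Mbp* included, was 4180 CPM there, against 2526 and 3527 CPM in the other KO NPCs and 2530 to 3218 CPM in the WT NPCs. For 7 neuron markers it was 1293 CPM there, 797 and 873 CPM in the other KO NPCs and 813 to 1468 CPM in the WT NPCs. WT NPC 3 was the next highest library in the astrocyte sum, *Gfap* and *Mbp*. The fold changes of the 9 genes are therefore also given without KO NPC 3, and at the end without both libraries numbered 3.

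None of the 9 genes passed the test between KO and WT NPCs. All 9 had enough counts to be tested, and edgeR's quasi-likelihood test gave 0 of 9 an adjusted p under 0.05. The same test called 0% of the 19073 genes tested, so that 0 of 9 is the background. It did not call the deleted gene *Armc5* either, at a log2 fold change of -4.68 (edgeR adjusted p = 0.0864). The result of 0 of 9 therefore does not show that the 9 genes were unchanged. At an unadjusted p under 0.05 the quasi-likelihood test called 0 of the 9 genes and 308 of all genes tested, or 1.61%. The likelihood ratio test of edgeR and DESeq2 also called 0 of the 9 genes, out of 17 and 35 genes called in all. The log2 fold changes, KO over WT, lay between -0.43 (*Aff1*) and 0.29 (*Ccnt1*), 7 above 0 and 2 below, and on the scale of the *Rn7sk* count described further on 1 was above 0. Their median was 0.02, beside -0.01 for all genes tested, of which 48.4% were above 0. None of the 9 genes had an absolute log2 fold change of 0.5 or more, a size that 25.4% of all genes tested had. The median spread over the 6 libraries, as the SD of the log2 level, was 0.24 for the 9 genes and 0.37 for all genes tested. All genes tested were not matched to the 9 for counts, so neither comparison shows a property of the 9 genes. In these bulk libraries, fewer cells of a type and less RNA per cell cannot be told apart.

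**Figure D1:**
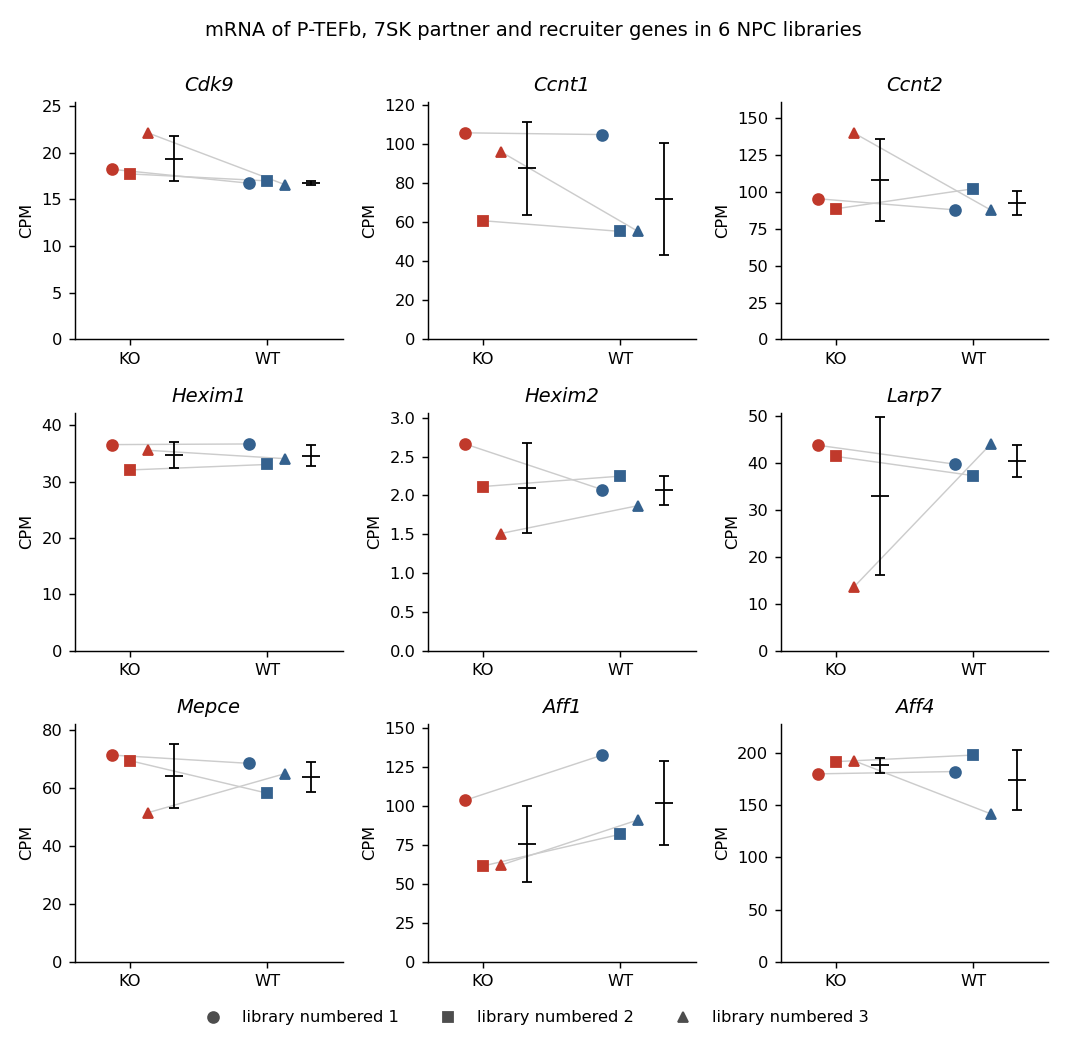
CPM (vertical axes, from 0) of each of the 9 genes in KO NPCs (red, left) and WT NPCs (blue, right). Points are libraries, the symbol gives the replicate number and grey lines join KO and WT libraries of the same number, and black bars are the mean and SD of 3 libraries. The groups are apart for *Cdk9* only, and for *Larp7* KO NPC 3 lies at 13.48 CPM below all others.

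*Cdk9*, the kinase subunit, was slightly higher in every KO library than in any WT library. It was at 18.2, 17.7 and 22.1 CPM in KO NPC 1, 2 and 3, against 16.7, 17.0 and 16.6 CPM in WT NPC 1, 2 and 3. The groups did not overlap, and the WT libraries lay close together. Groups that do not overlap, with KO higher, were found for 1 of the 9 genes and for 2.74% of all genes tested. With KO lower they were found for 0 of the 9 genes and for 3.28% of all genes tested. The difference did not pass the test: the log2 fold change was 0.21 (standard error 0.17, 95% interval -0.20 to 0.62, edgeR adjusted p = 0.983). It was 0.10 without KO NPC 3, the library with the highest level. The counts were taken at chromosome 2, 32705784 to 32713076 (GRCm38, minus strand), where *Cdk9* and the microRNA genes named above share the locus, and reads of the 3 genes cannot be told apart there.

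*Ccnt1* (chromosome 15, 98538586 to 98570923, minus strand) encodes cyclin T1, and *Ccnt2* (chromosome 1, 127774164 to 127808061, plus strand) cyclin T2. Neither passed the test. *Ccnt1*, the more studied partner of CDK9, was at 106, 60.8 and 96.2 CPM in KO NPC 1, 2 and 3, against 105, 55.4 and 55.4 CPM in WT NPC 1, 2 and 3. Both libraries numbered 1 and KO NPC 3 were high, the other 3 libraries were low, and the groups overlapped. Its log2 fold change was 0.29 (standard error 0.34, 95% interval -0.54 to 1.11, edgeR adjusted p = 0.983). It was 0.21 without KO NPC 3. Leaving out other libraries moved it from 0.12 (without WT NPC 3, and likewise without KO NPC 1) to 0.67 (without WT NPC 1, the only WT library at the high level), through 0.16 without WT NPC 2 and 0.52 without KO NPC 2. It was 0.05 without both libraries numbered 3.

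*Ccnt2*, the alternative cyclin, was at 95.3, 88.5 and 140 CPM in KO NPC 1, 2 and 3, against 87.7, 102 and 87.6 CPM in WT NPC 1, 2 and 3. KO NPC 3 was the highest library and the other 5 lay together, with overlapping groups. Its log2 fold change was 0.22 (standard error 0.22, 95% interval -0.30 to 0.75, edgeR adjusted p = 0.983), and -0.01 without KO NPC 3. The same library stood apart in its astrocyte, endothelial and mural markers, *Mbp* and *Nes*, and the part of these in its *Ccnt2* level was not tested.

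*Hexim1*, the main inhibitor of P-TEFb, had the steadiest mRNA of the 9 genes on the TMM scale. Its mRNA is often read as a marker of P-TEFb activity, since compounds that release P-TEFb from 7SK raise it. It was at 36.6, 32.1 and 35.6 CPM in KO NPC 1, 2 and 3, against 36.7, 33.1 and 34.1 CPM in WT NPC 1, 2 and 3. The groups overlapped nearly fully. The SD of its log2 level over the 6 libraries was 0.079, and 1.82% of all genes tested had a smaller one. On the log2 scale the fold change was 0.01 (standard error 0.14, edgeR adjusted p = 0.997), and its 95% interval, -0.34 to 0.35, corresponds to 78.9% to 128% of the WT level. The fold change was -0.01 without KO NPC 3. On the scale of the *Rn7sk* count, its log2 differences, KO over WT, were 0.14, 0.0017 and -0.73 within numbers 1, 2 and 3.

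*Hexim2*, the paralogue of *Hexim1* that also binds 7SK and inhibits P-TEFb, had the fewest counts of the 9 genes. It had 221, 154 and 89 counts in KO NPC 1, 2 and 3, against 131, 161 and 128 counts in WT NPC 1, 2 and 3. That is 2.66, 2.11 and 1.51 CPM in KO NPC 1, 2 and 3, against 2.07, 2.25 and 1.87 CPM in WT NPC 1, 2 and 3. The highest and the lowest library were both KO, so that the WT range lay inside the KO range. KO over WT, the log2 fold change was 0.02 (standard error 0.33, 95% interval -0.77 to 0.82, edgeR adjusted p = 0.995), and 0.21 without KO NPC 3, the lowest library.

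The HEXIM genes are neighbours on the plus strand of chromosome 11 (GRCm38), *Hexim1* at 103116231 to 103119725 and *Hexim2* at 103132429 to 103139876. A minus-strand locus that names no gene, at 103113527 to 103132933, spans the whole of *Hexim1* and 505 bases of *Hexim2*. It had 4273, 2025 and 3083 counts in KO NPC 1, 2 and 3, against 4346, 2819 and 2583 counts in WT NPC 1, 2 and 3. Use of the strand in counting is not stated in these sources, so that reads of *Hexim1* and of this locus may not be fully separated.

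*Larp7*, whose protein guards the 3′ end of 7SK, had the widest spread of the 9 genes, and a single KO library made it. It had 3625, 3009 and 795 counts in KO NPC 1, 2 and 3, against 2504, 2666 and 3013 counts in WT NPC 1, 2 and 3. On the CPM scale it was at 43.7, 41.3 and 13.48 in KO NPC 1, 2 and 3, against 39.6, 37.2 and 44.0 in WT NPC 1, 2 and 3. KO NPC 3 was far below the other 5 libraries, which lay between 37.2 and 44.0 CPM. Against the mean of those 5 its log2 level was -1.59, and 5.55% of all genes tested were as low or lower in that library. KO over WT, the log2 fold change was -0.29 (standard error 0.43, 95% interval -1.33 to 0.74, edgeR adjusted p = 0.983). It was 0.08 without KO NPC 3 and 0.14 without both libraries numbered 3. The astrocyte markers at 2172 CPM, *Mbp* at 518 CPM, the endothelial and mural markers at 77.0 CPM and *Nes* at 75.8 CPM stood beside this low value in the same library, and their part in it was not tested.

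The *Larp7* locus (chromosome 3, 127536426 to 127553349, minus strand) holds the *Mir302* and *Mir367* genes on its plus strand, which had 0 or 1 count in every library.

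*Mepce* (chromosome 5, 137781906 to 137787655, minus strand), the enzyme that methylates the 5′ end of 7SK, was at 71.5, 69.5 and 51.5 CPM in KO NPC 1, 2 and 3, against 68.6, 58.3 and 65.0 CPM in WT NPC 1, 2 and 3. KO NPC 3 was again the lowest library, the other KO libraries were the highest, and the groups overlapped. The log2 fold change was 0.00 (standard error 0.18, 95% interval -0.43 to 0.44, edgeR adjusted p = 0.998), and 0.14 without KO NPC 3.

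The scaffolds of the super elongation complex are *Aff1* (chromosome 5, 103692374 to 103855322, plus strand) and *Aff4* (chromosome 11, 53350833 to 53447889, plus strand). *Aff1* was at 103, 61.3 and 61.9 CPM in KO NPC 1, 2 and 3, against 132, 81.7 and 90.9 CPM in WT NPC 1, 2 and 3. The libraries numbered 1 were the highest of both genotypes, and the KO library was lower than the WT library within each number. The groups overlapped, since KO NPC 1 was above the WT libraries numbered 2 and 3. Its log2 fold change was -0.43 (standard error 0.29, 95% interval -1.14 to 0.28, edgeR adjusted p = 0.983), the lowest of the 9 genes. It was -0.30 without KO NPC 3 and -0.26 without KO NPC 2. Leaving out either library numbered 1 moved it the most, to -0.18 without WT NPC 1 and to -0.72 without KO NPC 1, where its unadjusted p was 0.0418 and its adjusted p 0.839 by edgeR. With the replicate number as a block it was -0.44, with an unadjusted p of 0.0501 and an adjusted p of 0.968 by edgeR. The *Aff1* locus lies inside a long minus-strand locus counted as *Hsd17b11*, which had 1061, 849 and 532 counts in KO NPC 1, 2 and 3, against 960, 875 and 694 counts in WT NPC 1, 2 and 3.

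*Aff4* was at 180, 192 and 193 CPM in KO NPC 1, 2 and 3, against 182, 198 and 142 CPM in WT NPC 1, 2 and 3. WT NPC 3 was the lowest library, the other 5 lay close together, and the groups overlapped. Its log2 fold change was 0.11 (standard error 0.17, 95% interval -0.30 to 0.53, edgeR adjusted p = 0.983). It was 0.09 without KO NPC 3 and -0.02 without WT NPC 3. The minus-strand locus *Uqcrq*, which overlaps *Aff4* over 19968 bases and lies mostly outside it, had 3851, 3043 and 1228 counts in KO NPC 1, 2 and 3, against 2995, 2711 and 5062 counts in WT NPC 1, 2 and 3.

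**Figure D2:**
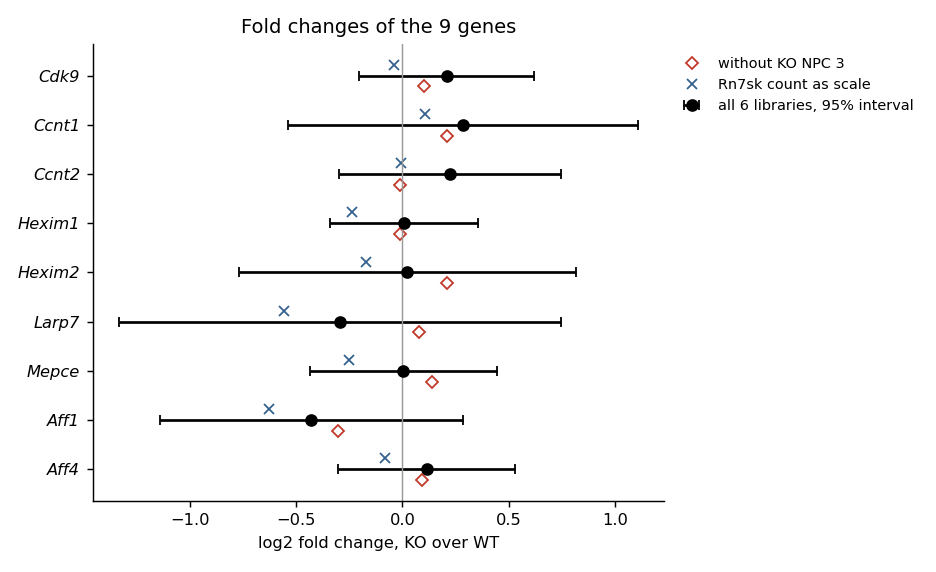
Log2 fold change, KO over WT (horizontal axis), of the 9 genes. Black points with bars are the values from all 6 libraries on TMM scale with their 95% intervals, open diamonds leave out KO NPC 3, and crosses use the *Rn7sk* count as scale. Every interval includes 0, and without KO NPC 3 the *Larp7* value is on the other side of 0, as are those of *Ccnt2* and *Hexim1*, which then lie at -0.01.

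Libraries of the same replicate number deviated together, so KO and WT were also compared within each number. Within every number KO was higher for 2 of the 9 genes, *Cdk9* and *Ccnt1*, and so it was for 10.9% of all genes tested. KO was lower within every number for 1 of the 9 genes, *Aff1*, and for 11.6% of all genes tested. For *Cdk9* the log2 differences were 0.12, 0.06 and 0.42 in numbers 1, 2 and 3. For *Ccnt1* they were 0.01, 0.14 and 0.80, of which the first lies near 0. For *Aff1* they were -0.36, -0.41 and -0.55, the most even of the 3 genes in size. On the scale of the *Rn7sk* count, the *Cdk9* difference in number 3 was -0.37 and the *Cdk9* groups overlapped, while *Ccnt1* kept its sign in every number (0.16, 0.18 and 0.01) and so did *Aff1* (-0.21, -0.37 and -1.34). With the replicate block, edgeR's quasi-likelihood test gave 0 of the 9 genes an unadjusted p under 0.05, and 2.05% of all genes tested had one. The unadjusted p of this blocked test was 0.358 for *Cdk9*, 0.237 for *Ccnt1* and 0.0501 for *Aff1*.

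**Figure D3:**
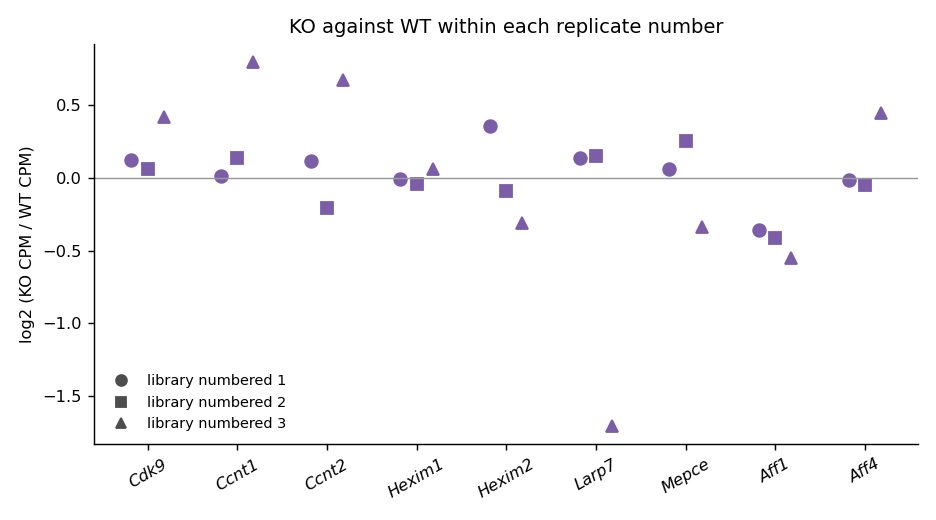
Log2 difference of CPM, KO minus WT library of the same replicate number (vertical axis), for the 9 genes, with a symbol for each number. *Aff1* is below 0 in all 3 numbers, from -0.36 to -0.55, and the number 3 values are the farthest from 0 for 8 of the 9 genes, with *Larp7* at -1.71.

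The balance of genes within a library does not depend on how the libraries are scaled. For 4 such ratios and for the *Rn7sk* level, the genotypes were compared with an exact permutation test (two-sided, smallest possible p = 0.1), and p was also adjusted over these 5 comparisons. The summed HEXIM mRNAs over *Cdk9*, inhibitors against kinase, had a log2 ratio of 1.11, 0.95 and 0.75 in KO NPC 1, 2 and 3, against 1.21, 1.06 and 1.12 in WT NPC 1, 2 and 3. The KO ratio was lower within each number, and KO NPC 1 lay above the lowest WT library. The mean difference was -0.20 (exact permutation p = 0.2, adjusted p = 0.5), and -0.10 without KO NPC 3. With the replicate number as block the permutation p was 0.25, the smallest that the blocked test can give with 3 pairs.

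*Aff4* over *Aff1* had a log2 ratio of 0.80, 1.65 and 1.64 in KO NPC 1, 2 and 3, against 0.46, 1.28 and 0.64 in WT NPC 1, 2 and 3. The KO ratio was higher within each number, by 0.34, 0.37 and 1.00, and the groups overlapped. The mean difference was 0.57 (exact permutation p = 0.2, adjusted p = 0.5), and 0.43 without KO NPC 3. With the replicate number as block the permutation p was 0.25 here too, again the smallest that the blocked test can give with 3 pairs.

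*Ccnt2* over *Ccnt1* had a log2 ratio of -0.15, 0.54 and 0.54 in KO NPC 1, 2 and 3, against -0.26, 0.88 and 0.66 in WT NPC 1, 2 and 3. Both libraries numbered 1 were below 0 and the other 4 above it. The mean difference between genotypes was -0.12 (exact permutation p = 0.6, adjusted p = 0.7), and -0.23 without KO NPC 3.

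*Larp7* stood at 3.74, 2.64 and 0.969 counts for each 1000 *Rn7sk* counts in KO NPC 1, 2 and 3, against 3.07, 2.31 and 5.45 in WT NPC 1, 2 and 3. The lowest and the highest value came from the libraries numbered 3, KO NPC 3 with little *Larp7* and WT NPC 3 with little *Rn7sk*. The difference of the log2 ratios was -0.67 (exact permutation p = 0.5, adjusted p = 0.7), -0.10 without KO NPC 3 and 0.24 without both libraries numbered 3.

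**Figure D4:**
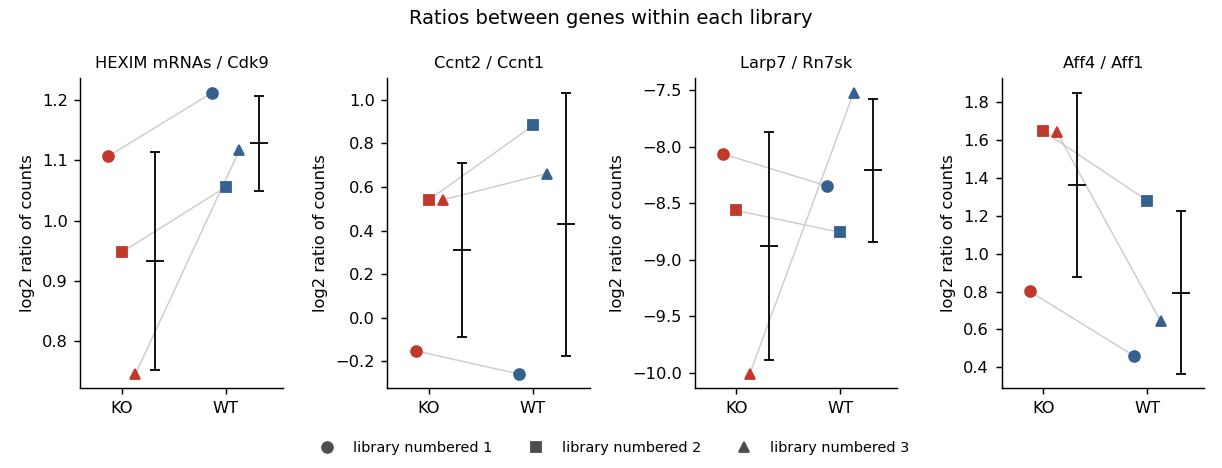
Log2 ratio of counts within each library (vertical axes, each with its own range) for KO NPCs (red, left) and WT NPCs (blue, right). Symbols give the replicate number, grey lines join libraries of the same number, and black bars are the mean and SD of 3 libraries. The HEXIM to *Cdk9* ratio is lower in KO within each number and the *Aff4* to *Aff1* ratio higher, with overlapping groups in all 4 panels.

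7SK RNA itself took 0.812% to 1.57% of the counts of a library. *Rn7sk* was at 11674, 15618 and 13913 CPM in KO NPC 1, 2 and 3, against 12895, 16113 and 8062 CPM in WT NPC 1, 2 and 3. WT NPC 3 was the lowest, below all KO libraries, and the other WT libraries lay within or above the KO range. The mean log2 level differed by 0.20 between KO and WT (exact permutation p = 0.7, adjusted p = 0.7), and by -0.08 without WT NPC 3. The study's methods scale counts by a ratio of *Rn7sk* log2 values, which was not used here. The fold changes were also computed with the *Rn7sk* count itself as library size, which is another scale and moved the median log2 fold change of all genes tested to -0.26. There 1 of the 9 genes was above 0 and 7 lay above the median of all genes, with a median of -0.17 for the 9, and their values ran from -0.63 for *Aff1* to 0.11 for *Ccnt1*. None was called on that scale either.

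Levels of different genes can be compared only per length. Per kilobase of merged exons, *Mepce* was the most abundant of the 9 mRNAs, at 18.1 ± 3.09 CPM per kilobase in the KO NPCs and 18.01 ± 1.47 in the WT NPCs (SD, n = 3 each). *Larp7* and *Aff4* came next in the WT NPCs, with ranges over libraries that overlapped that of *Mepce*. *Cdk9* was at 4.20 ± 0.523 CPM per kilobase in the KO NPCs and 3.63 ± 0.0443 in the WT NPCs (SD, n = 3 each). Its value depends on the length taken: per kilobase of its longest coding transcript in GENCODE M21 it was at 11.2 ± 1.39 in the KO NPCs and 9.68 ± 0.118 in the WT NPCs. *Hexim2* was the least abundant with either length, at 0.883 ± 0.243 CPM per kilobase of merged exons in the KO NPCs and 0.869 ± 0.0803 in the WT NPCs (SD, n = 3 each). It was the only gene whose range over the 6 libraries lay apart from that of its neighbour in the order.

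**Figure D5:**
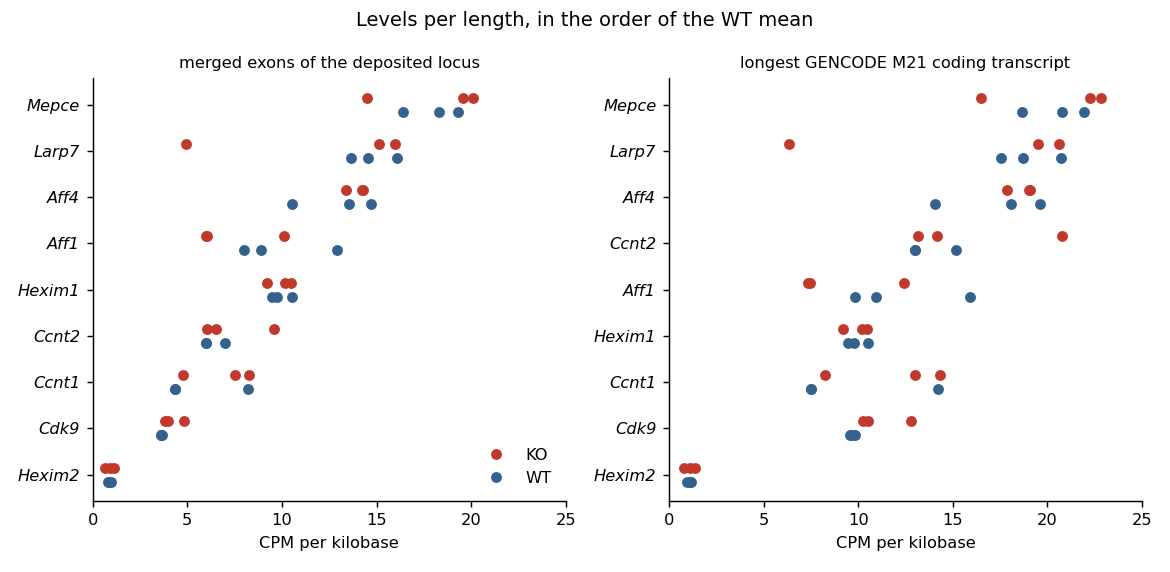
CPM per kilobase (horizontal axes) of the 9 genes in each KO library (red, above) and WT library (blue, below), in the order of the WT mean, with merged exons of the counted locus (left) or the longest coding transcript (right) as length. *Mepce* leads and *Hexim2* is last with both lengths, and the order between them changes.

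Other genes of the pathway were read from 6 lists with 51 gene names, of which 50 were found in the data and tested. The remaining name, *Hnrnpq*, named no locus. The quasi-likelihood test called 0 of the 50 higher and 0 lower at an adjusted p under 0.05. At an unadjusted p under 0.05, 0 were higher and 1 lower, a share near the 1.61% of all genes tested. The likelihood ratio test and DESeq2 called 0 of them as well. *Ppm1a* and *Mnat1*, each in a list of its own, share a merged locus, so that the 50 genes stand for 49 loci. Log2 fold changes were above 0 for 16 of the 49 loci and below 0 for 33, but above 0 for 32 and below 0 for 17 without KO NPC 3. Of all genes tested, 48.4% were above 0 with all 6 libraries. On the scale of the *Rn7sk* count 6 of the 49 loci were above 0, and the median of all genes tested lay at -0.26 there. KO NPC 3 was the lowest library for 31 of these 49 loci, a larger share than the 36.8% found among all genes tested.

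The 1 gene below the unadjusted threshold was *Polr2a*, the largest subunit of Pol II, whose CTD is the substrate of P-TEFb. It was at 244, 275 and 215 CPM in KO NPC 1, 2 and 3, against 361, 431 and 397 CPM in WT NPC 1, 2 and 3. Every KO library was below every WT library, which held for 3.28% of all genes tested. The log2 fold change was -0.69 (standard error 0.16, unadjusted p = 0.00495), and -0.61 without KO NPC 3, but the edgeR adjusted p over all genes was 0.983. By DESeq2 the adjusted p was 0.0654, with a log2 fold change of -0.68, and on the scale of the *Rn7sk* count the log2 fold change was -0.94 with an edgeR adjusted p of 0.965. The study also reports lower *Polr2a* mRNA in KO NPCs by RT-qPCR. Its immunoblots of KO NPCs show more POLR2A protein, forms with a phosphorylated CTD included.

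In the list of substrates and pausing factors, *Polr2a* included, 6 of 7 genes had a log2 fold change below 0. The list had its median at -0.13, and at -0.01 without KO NPC 3. The NELF subunits *Nelfe* and *Nelfcd* had log2 fold changes of -0.21 and -0.17 (-0.08 and -0.04 without KO NPC 3).

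The further members of the super elongation complex had 6 of 9 log2 fold changes above 0 and a median of 0.31, which was 0.01 without KO NPC 3. *Mllt3*, a chromatin reader of the complex, was at 55.0, 52.2 and 79.0 CPM in KO NPC 1, 2 and 3, against 55.9, 49.2 and 45.2 CPM in WT NPC 1, 2 and 3. KO NPC 3 alone was high. *Ell3*, an elongation factor counted together with *Serinc4*, was at 3.85 CPM in KO NPC 3, against 0.506 to 0.961 CPM elsewhere. *Eaf2*, a cofactor of the ELL proteins, was below 0.6 CPM in all 6 libraries.

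The list of recruiters had its median at -0.10, and at 0.14 without KO NPC 3. *Brd2*, a bromodomain protein, was at 291, 248 and 218 CPM in KO NPC 1, 2 and 3, against 319, 287 and 297 CPM in WT NPC 1, 2 and 3. The groups overlapped through KO NPC 1, and the log2 fold change was -0.25 (standard error 0.16), and -0.16 without KO NPC 3. *Ddx21*, a helicase that releases P-TEFb from 7SK, was at 78.8 CPM in KO NPC 3, against 166 to 207 CPM elsewhere. *Sart3*, a recycling factor of spliceosomal RNA particles, was at 23.6 CPM in KO NPC 3, against 47.2 to 55.6 CPM elsewhere.

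The list of 7SK RNA and its other binding proteins had a median of -0.11, and 0.08 without KO NPC 3. *Hnrnpr*, an RNA-binding protein found on 7SK that has released P-TEFb, was at 166, 164 and 175 CPM in KO NPC 1, 2 and 3, against 151, 149 and 154 CPM in WT NPC 1, 2 and 3. The groups did not overlap, with KO higher, as for 2.74% of all genes tested, and the log2 fold change was 0.15 (standard error 0.13, edgeR adjusted p = 0.983). *Ssb*, which encodes the La protein that binds new Pol III transcripts, was at 76.4 CPM in KO NPC 3, against 114 to 122 CPM elsewhere. *Bcdin3d*, a methyltransferase related to MEPCE, was at 6.54 CPM in KO NPC 3, against 9.79 to 10.5 CPM elsewhere.

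Phosphatases and chaperones had a median of -0.10, and 0.12 without KO NPC 3. *Hsp90aa1*, a chaperone used in CDK9 assembly, was at 220 CPM in KO NPC 3, against 424 to 530 CPM elsewhere. The locus shared by *Ppm1a*, a phosphatase, and *Mnat1*, the assembly factor of the CDK7 kinase, was at 67.0 CPM in KO NPC 1, against 128 to 152 CPM elsewhere. *Ppp3ca*, the catalytic subunit of calcineurin, stood at -0.11 on the log2 scale (standard error 0.16).

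Other CTD kinases and cyclins had a median of -0.15, and -0.03 without KO NPC 3. *Cdk7*, the CTD kinase of initiation that also activates CDK9, was at 72.8, 75.0 and 96.4 CPM in KO NPC 1, 2 and 3, against 68.1, 66.6 and 69.2 CPM in WT NPC 1, 2 and 3. As for *Cdk9*, every KO library was above every WT library, which held for 2.74% of all genes tested, and KO NPC 3 was the highest. The log2 fold change of *Cdk7* was 0.26 (standard error 0.16, edgeR adjusted p = 0.983), and 0.12 without KO NPC 3. *Ccnk*, the cyclin of CDK12 and CDK13, was at 80.0 CPM in KO NPC 3, against 109 to 116 CPM elsewhere.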

How the data were processed

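RNA was rRNA-depleted and strand-marking libraries were sequenced in paired-end mode. The submitters' processing notes name Trimmomatic, STAR, Picard, StringTie, edgeR and GRCm38, and neither their versions nor the read counter are given in the sources used here. The authors deposited whole-number counts per locus, not scaled or filtered. They also deposited log2 CPM values, log2 counts relative to *Rn7sk* and means of both by genotype, which entered no result.

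Loci that name a gene (53103) were summed by gene, and 6596 unnamed loci were left out. After filterByExpr (minimum count 10, minimum total 15), 19073 genes were scaled by TMM and tested by edgeR's quasi-likelihood method, with no block, Benjamini-Hochberg adjustment and a threshold of 0.05. The standard error is the absolute log2 fold change over the square root of F. R 4.3.3, edgeR 4.0.16 and DESeq2 1.42.0 were used, and the fits were tested on simulated counts.

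The study's methods call the libraries pairs, and KO and WT libraries of the same number deviated together (r across genes 0.413, 0.169 and 0.195, at most 0.0579 for other combinations), so the numbers were taken to pair them. The 9 genes and all lists were chosen with earlier results of these data known. Named were the 9 genes, up to 3 genes of each list with the smallest unadjusted p, *Rn7sk*, *Polr2a*, *Armc5* and 4 markers. Alternatives were scaling on *Rn7sk* or totals, no filter, the likelihood ratio test, DESeq2, the block, and libraries left out.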

Additional observations from a re-analysis of the deposited data

How the results depend on the processing

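None of the 9 genes was called under any of the 15 alternatives, the replicate block included. The number of genes called among all tested was 0, and 4 on the *Rn7sk* scale, 5 without the filter, 17 by the likelihood ratio test, 35 by DESeq2, 38 by the replicate block with the likelihood ratio test, and 22 by that fit on the *Rn7sk* scale. It was 0 with the replicate block in the quasi-likelihood test, which changed no other call. The median log2 fold change of the 9 genes, 0.02, was -0.17 on the *Rn7sk* scale and -0.19 there with the block and the likelihood ratio test, and it ran from -0.033 (without KO NPC 1) to 0.12 (without WT NPC 2).

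Signs turned for uncalled values. On the *Rn7sk* scale, which moves all genes, the log2 fold changes were -0.040 for *Cdk9*, -0.0071 for *Ccnt2*, -0.24 for *Hexim1*, -0.17 for *Hexim2*, -0.25 for *Mepce*, -0.083 for *Aff4*, -0.10 for *Hnrnpr* and -0.0029 for *Cdk7*. On that scale with the block and the likelihood ratio test they were -0.0034 for *Ccnt2*, -0.19 for *Hexim1*, -0.20 for *Hexim2*, -0.20 for *Mepce*, -0.073 for *Aff4* and -0.044 for *Hnrnpr*. Without the filter they were -0.030 for *Hexim1*, -0.0011 for *Hexim2* and -0.021 for *Mepce*. With the replicate block they were -0.011 for *Hexim2* and -0.0072 for *Mepce*, and -0.0098 and -0.0072 with the likelihood ratio test. Without both libraries numbered 3 they were -0.053 for *Ccnt2*, -0.029 for *Hexim1*, 0.14 for *Larp7*, -0.039 for *Aff4*, -0.15 for *Ell3*, 0.081 for *Sart3*, 0.25 for *Ddx21*, 0.044 for *Ssb*, -0.095 for *Rn7sk* and 0.070 for *Hsp90aa1*. There the log2 ratio of *Larp7* to *Rn7sk* differed by 0.24 and the log2 level of *Rn7sk* by -0.094. The cause of these turns was not tested.

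Leaving out each library in turn gave ranges of 0.10 to 0.29 for *Cdk9*, 0.12 to 0.67 for *Ccnt1*, -0.72 to -0.18 for *Aff1*, -0.0098 to 0.37 for *Ccnt2*, -0.033 to 0.089 for *Hexim1*, -0.19 to 0.21 for *Hexim2*, -0.56 to 0.077 for *Larp7*, -0.080 to 0.14 for *Mepce*, -0.020 to 0.24 for *Aff4*, -0.21 to 1.51 for *Ell3*, -0.48 to 0.054 for *Sart3*, -0.35 to 0.16 for *Ddx21*, -0.28 to 0.021 for *Ssb*, -0.083 to 0.42 for *Rn7sk* and -0.52 to 0.0032 for *Hsp90aa1*. The difference in the *Ccnt2* to *Ccnt1* ratio ran from -0.46 to 0.11, and that in the *Rn7sk* level from -0.080 to 0.42. Without both libraries numbered 3, the values that kept their sign were 0.086 for *Cdk9*, 0.050 for *Ccnt1*, 0.14 for *Hexim2*, 0.15 for *Mepce* and -0.38 for *Aff1*. Leaving out merged loci was not run, because *Cdk9* has no other locus. *Hexim2* rests on 89 to 221 counts a library, and with 3 libraries a group the interval of each of the 9 genes includes 0.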
